A study of Mus musculus with 10 samples.

Results

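The comparison set mouse embryonic fibroblasts (MEFs) that received FoxO6 together with the reprogramming factors against MEFs that received the red fluorescent protein DsRed in its place, at day 3. The cells came from E13.5 embryos of the strain labelled CBA/CaJ X C57BL/6J and, by the study's methods, carried an Oct4-GFP reporter. Both arms were transduced with retroviruses for Oct4, Klf4 and Sox2 (together OKS) made in PlatE packaging cells, and both were kept in iCD1, a chemically defined medium for making induced pluripotent stem cells. The arm called OKS+DsRed here is labelled DR. Every gene with at least 10 expected counts in the higher of the day 3 libraries was compared, which was 11738 of the 50600 genes listed. There was 1 library an arm at day 3, so the difference has no replicate check of its own, and the 8 libraries of days 0, 1, 5 and 7 served as the yardstick. Whether these libraries came from separate cultures was not given in the sources used here.

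FoxO6 is a forkhead transcription factor of the FoxO group, whose members act downstream of insulin and growth factor signalling, where the kinase AKT phosphorylates them and limits their activity. FoxO factors are known for switching on genes of cell cycle arrest, stress resistance and metabolism. The interferon response starts when interferons bind their receptors and Janus kinases activate transcription factors, which, with interferon regulatory factors, switch on antiviral effectors, interferon-inducible GTPases and the machinery that presents peptides on MHC class I.

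The day 3 libraries held 1464719 expected counts in OKS+DsRed and 1984854 in OKS+FoxO6, within the range of 1208379 to 2225750 over all 10 libraries. Mitochondrial genes took 3.95% and 4.26% of the counts. Ribosomal RNA took 0.586% in OKS+DsRed and 0.112% in OKS+FoxO6, against 0.0655% to 0.791% over the 10 libraries. All 10 fibroblast markers were measured, with a summed level of 4187 TPM, a level scaled for transcript length and library size, in OKS+DsRed and 4237 TPM in OKS+FoxO6, so both libraries held the RNA that the label MEF calls for. Of 12 macrophage markers 1 (Cd68) reached 10 counts, the summed level was 62.6 and 26.8 TPM, and 4 and 6 of them were at 0, Adgre1 in both libraries. None of 15 skeletal muscle markers reached 10 counts, and their sum was 24.5 and 27.8 TPM with 9 at 0 in each library. Of 14 endothelial markers 2 (Kdr and Tek) reached it, the sum was 59.3 and 149 TPM, and 8 and 5 were at 0. In bulk RNA, fewer cells of a type and less RNA per cell cannot be told apart.

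The transduced factors were read first. Foxo6 itself (chromosome 4, 120267079 to 120287349, gene coordinates being those of GENCODE M21 on GRCm38) had 3 expected counts or 1.61 TPM in OKS+DsRed and 3375 expected counts or 1356 TPM in OKS+FoxO6. The ratio of counts scaled for library size was 829, with a 95% exact interval of 283 to 4021 that, like every interval here, covers counting error only. The day 3 level of Foxo6 was the highest of the OKS+FoxO6 arm, which ranged from 762 TPM at day 7 to 1356 TPM, while OKS+DsRed stayed between 0.61 and 2.29 TPM on every day. Foxo6 had the lowest adjusted p of the edgeR test of day 3 described below (log2 difference of 9.64 ± 0.47 SE, adjusted p = 1.6e-05). Viral and endogenous transcripts cannot be told apart in these values.

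The OKS factors differed far less than Foxo6. Pou5f1, the gene of Oct4, stood at 4569 TPM in OKS+DsRed and 5464 TPM in OKS+FoxO6. Sox2 stood at 2698 and 3109 TPM, and Klf4 at 2964 and 3094 TPM. On the log2(TPM + 1) scale the OKS+FoxO6 library was higher by 0.26 for Pou5f1, 0.20 for Sox2 and 0.06 for Klf4. The count ratios were 1.17 (exact interval 1.13 to 1.22), 1.13 (1.09 to 1.18) and 1.11 (1.07 to 1.15). None of these passed the edgeR quasi-likelihood test of the day 3 difference (adjusted p = 0.903, 0.931 and 0.946).

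Across all genes tested the differences centred near 0, with a median of 0.02 in log2(TPM + 1), OKS+FoxO6 minus OKS+DsRed. Past a difference of 2-fold, 710 genes (6.05% of those tested) were higher in OKS+FoxO6 and 989 (8.43%) were lower. An exact binomial test asked of each gene whether read sampling alone gives such a difference between these libraries, which compares the libraries and not the conditions. Past 2-fold and past this test (adjusted p under 0.05 over all genes tested), 490 genes (4.17%) were higher and 769 (6.55%) lower, and these are meant where a gene is said below to pass both rules. Counts of list members by both rules are to be read against these shares. Among genes with 100 or more counts in the higher library 228 were higher and 195 lower by both rules, and among those with 10 to under 15 counts 25 were higher and 81 lower.

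**Figure D1:**
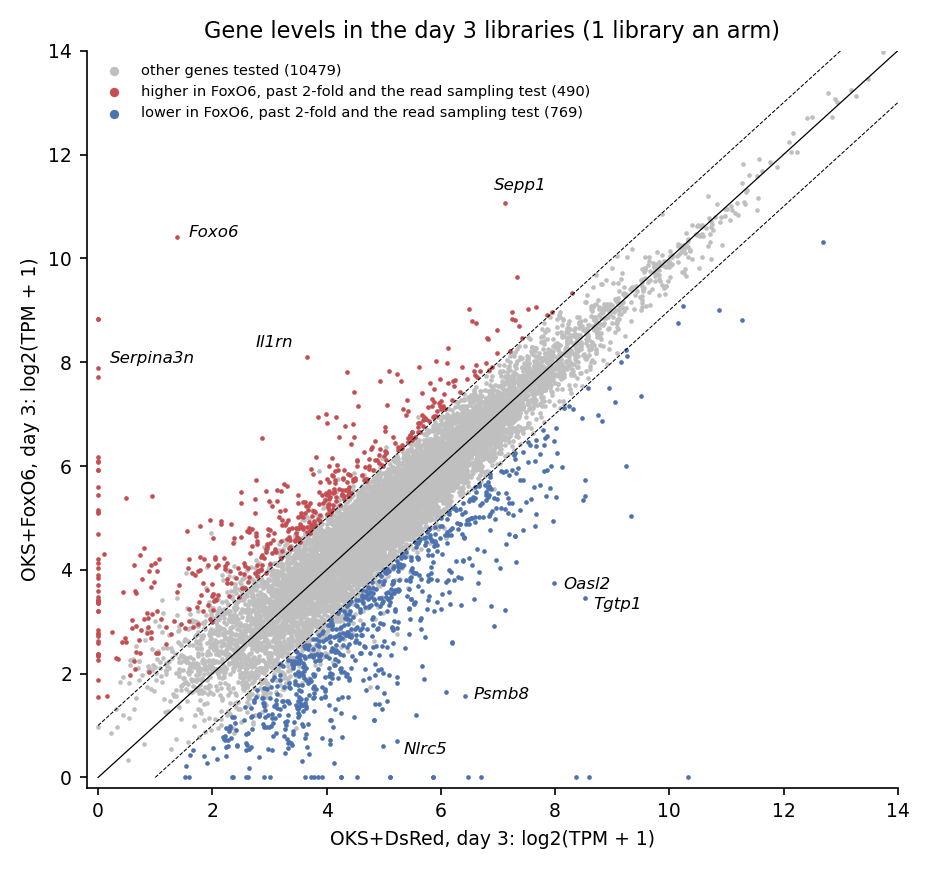
Level of each of the 11738 genes tested at day 3 as log2(TPM + 1), OKS+DsRed on the horizontal and OKS+FoxO6 on the vertical axis, 1 point a gene and 1 library an arm; the solid line marks equal levels and the dashed lines 2-fold. Foxo6, Serpina3n, Il1rn and Sepp1 lie far above the lines, and Tgtp1, Oasl2, Psmb8 and Nlrc5 far below.

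To set the day 3 difference against a spread between libraries, edgeR was fitted to all 10 libraries with day, arm and a term for OKS+FoxO6 at day 3, so that the spread came from how the arm difference varied over days 0, 1, 5 and 7 (3 residual degrees of freedom) and the day 3 libraries were assumed to vary alike. By this test 19 of 11028 genes (0.172%) were higher and 42 (0.381%) lower in OKS+FoxO6 at day 3, with 1102 genes at an unadjusted p under 0.05. The counts moved with the days left in. They were 39 higher and 95 lower without day 0, 3 and 11 without day 1, 13 and 22 without day 5, and 79 and 109 without day 7.

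Serpina3n, Il1rn and Sepp1 were among the 15 named genes highest in OKS+FoxO6. Serpina3n, an acute phase inhibitor of serine proteases, had 0 counts in OKS+DsRed and 460 (236 TPM) in OKS+FoxO6, at least 113-fold higher when 3 counts are set for the 0. Il1rn, the interleukin 1 receptor antagonist, had 10 and 470 counts (11.7 and 273 TPM), a ratio of 34.6 (exact interval 18.7 to 72.7). Sepp1, the selenoprotein that carries selenium in plasma, had 183 and 3686 counts (139 and 2158 TPM), a ratio of 14.8 (12.8 to 17.3), and was the most abundant of the 15 highest in OKS+FoxO6. All 3 also passed the edgeR test of day 3, with adjusted p = 0.0359 for Serpina3n, 0.0451 for Il1rn and 0.0308 for Sepp1.

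The kininogens, precursors of the kinin peptides, went the same way. Kng1 had 0 and 112 counts, at least 27.5-fold higher, and Kng2 had 7 and 141 counts, a ratio of 14.8 (7.02 to 37.6). Try5, a trypsin, had 0 and 43 counts, at least 10.6-fold higher, and Slc9a7, a sodium and proton exchanger, had 0 and 40, at least 9.82-fold higher. Kng2 passed the edgeR test (adjusted p = 0.0479), and Kng1, Try5 and Slc9a7 were not fitted because they did not pass its filter on low counts.

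Other names among the 15 highest belong to a multigene family or overlap another gene. Defa30, Defa23 and Defa31, alpha-defensins of a multigene family, had 0 counts in OKS+DsRed and 22.1, 11.7 and 10.2 in OKS+FoxO6, and the 22 Defa genes together had 4 and 48 counts. Zbed6 had 0 and 74.2 counts, but it lies on the same strand as Zc3h11a and Gm38394, and together they had 505 and 745. Ang, a ribonuclease with angiogenic activity, had 0 and 10 counts within Rnase4, which had 161 and 715. Mamdc4 had 1 and 28.9 counts beside 28 and 9.09 in Phpt1 on the same strand. Pam16, of the mitochondrial import motor, had 0 and 22 counts and overlaps Glis2, with 114 and 72, on the opposite strand. The values of these genes taken alone are uncertain, while Rnase4 itself was at 151 and 503 TPM (named after its values were seen).

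Of the 15 named genes that were lowest in OKS+FoxO6, 8 are interferon-inducible. Tgtp1, an immunity related GTPase, had 696 counts (366 TPM) in OKS+DsRed and 17.4 (9.92 TPM) in OKS+FoxO6, a ratio of 0.0180 (exact interval 0.0104 to 0.0290). Its neighbour and near copy Tgtp2 had 68.5 and 3.51 counts, and the sum of both was 765 and 20.9 counts, so the direction does not turn on how reads were split between them. Psmb8, a catalytic subunit of the immunoproteasome, had 62 and 3 counts (84.4 and 1.97 TPM), a ratio of 0.0356 (0.00716 to 0.109). Nlrc5, the transactivator of MHC class I genes, had 89 and 1 counts (36.8 and 0.62 TPM), a ratio of 0.00828 (0.000207 to 0.0473). Oasl2, of the oligoadenylate synthetase family, had 356 and 28 counts, Rtp4 had 104 and 7, and Igtp, a further immunity related GTPase, had 194 and 16. Gbp6, a guanylate binding protein, had 38.1 and 0 counts and lies on the same strand as Gm43302, with which its counts summed to 57.7 and 10.7, so its own share of the reads is uncertain. Rtp4 overlaps Masp1, with 36 and 5 counts, on the opposite strand.

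The other low genes belong to no common list. Nwd1 had 170 and 12 counts, Crhr2, a receptor of corticotropin releasing hormone, had 77 and 5, and Scn3a, a neuronal sodium channel, had 24 and 2. Calcb, a calcitonin gene related peptide, had 18 and 1 counts, and Ttll2 and Tpmt, with 14 and 10 counts in OKS+DsRed, had 0 in the other arm, at least 6.33-fold and 4.52-fold lower. Tpmt overlaps Kdm1b, with 43 and 55 counts, on the opposite strand, so its value taken alone is uncertain. Atp5g2, a subunit of ATP synthase, had 32.3 and 1.19 counts, which were fractional and so shared with other transcripts. Nwd1 passed the edgeR test of day 3 with a log2 difference of -4.25 ± 0.49 (SE, adjusted p = 0.0114).

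The promoters of the 4 lowest and the 2 highest named genes that RefSeq's table holds are printed to show which sequence stood before genes that differed most (RefSeq, GRCm38.p6, 250 bases before to 50 after the start, read along the gene; capitals mark a match to the interferon response core GAAANNGAA, the gamma activated site TTCNNNGAA, the forkhead motif GTAAACA or the AP-1 motif TGANTCA on either strand). Foxo6 and Nlrc5, which rank among these, had no entry.
Tgtp1 (chr11:48992197-48992496, strand minus): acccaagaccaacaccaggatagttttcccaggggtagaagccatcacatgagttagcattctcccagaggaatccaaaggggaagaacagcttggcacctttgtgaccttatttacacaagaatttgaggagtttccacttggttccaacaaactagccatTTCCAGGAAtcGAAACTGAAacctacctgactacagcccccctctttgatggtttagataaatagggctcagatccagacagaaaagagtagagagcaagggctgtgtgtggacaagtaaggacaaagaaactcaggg
Psmb8 (chr17:34197945-34198244, strand plus): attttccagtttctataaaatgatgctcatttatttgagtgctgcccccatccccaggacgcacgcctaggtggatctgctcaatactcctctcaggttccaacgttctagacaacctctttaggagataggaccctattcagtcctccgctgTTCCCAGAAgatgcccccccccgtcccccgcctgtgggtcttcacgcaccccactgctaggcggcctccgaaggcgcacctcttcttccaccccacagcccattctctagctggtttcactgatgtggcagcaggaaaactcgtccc
Atp5g2 (chr15:102670998-102671297, strand minus): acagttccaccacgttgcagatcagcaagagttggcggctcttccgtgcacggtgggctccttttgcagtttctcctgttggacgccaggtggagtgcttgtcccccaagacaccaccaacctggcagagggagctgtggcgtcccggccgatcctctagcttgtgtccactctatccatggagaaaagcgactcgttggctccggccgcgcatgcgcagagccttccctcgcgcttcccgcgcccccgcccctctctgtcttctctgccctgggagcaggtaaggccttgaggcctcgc
Tgtp2 (chr11:49064163-49064462, strand minus): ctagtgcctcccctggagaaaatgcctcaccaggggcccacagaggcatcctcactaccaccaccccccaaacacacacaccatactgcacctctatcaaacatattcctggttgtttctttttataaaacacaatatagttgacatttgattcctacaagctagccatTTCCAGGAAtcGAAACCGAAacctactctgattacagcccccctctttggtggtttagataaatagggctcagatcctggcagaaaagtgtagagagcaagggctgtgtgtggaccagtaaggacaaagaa
Serpina3n (chr12:104406458-104406757, strand plus): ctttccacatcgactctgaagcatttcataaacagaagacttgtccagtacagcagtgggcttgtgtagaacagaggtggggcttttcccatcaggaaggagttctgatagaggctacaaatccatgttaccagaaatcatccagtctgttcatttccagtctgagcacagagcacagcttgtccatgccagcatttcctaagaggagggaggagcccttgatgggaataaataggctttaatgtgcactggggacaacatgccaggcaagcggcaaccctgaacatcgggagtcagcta
Defa30 (chr8:21134400-21134699, strand plus): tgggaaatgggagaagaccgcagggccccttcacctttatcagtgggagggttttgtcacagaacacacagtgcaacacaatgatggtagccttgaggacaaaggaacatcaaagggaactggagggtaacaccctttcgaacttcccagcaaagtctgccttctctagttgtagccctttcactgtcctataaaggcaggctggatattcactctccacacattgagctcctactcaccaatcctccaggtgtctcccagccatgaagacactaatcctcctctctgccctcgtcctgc

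Tgtp1 and Tgtp2 each held a gamma activated site and, 2 bases after it, an interferon response core, which began 77 bases before the start in Tgtp1 and 70 in Tgtp2. Psmb8 held a gamma activated site 97 bases before its start. None of the 4 motifs was found in these windows of Atp5g2, Serpina3n and Defa30. The gamma activated site and the AP-1 motif read the same on both strands.

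Promoters could be matched to 8998 of the genes tested. The interferon response core was in 7.01% of the 11548 promoters of these genes, some having several, in 10.8% of the 719 promoters of genes lower by both rules and in 8.01% of the 487 of genes higher. Without the interferon and antigen presentation lists the share among lower genes was 8.42%. It was in 8 of 9 promoters of the interferon-inducible GTPases tested and in 18 of 37 of the type I interferon list. The gamma activated site was in 6.56% of promoters of genes tested, 7.09% of those lower and 7.19% of those higher. The forkhead motif was in 2.45% of promoters of genes tested, in 2.87% of those higher and 2.09% of those lower, and in 6 of 39 promoters of the FoxO target list. The AP-1 motif was in 4.9%, 5.95% of those higher and 7.65% of those lower. Over all 32851 promoters of the table, the shares were 8.56% for the response core, 8.3% for the gamma activated site, 3.65% for the forkhead and 7.81% for the AP-1 motif. A match says only that these letters stand in the window.

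Most genes of the interferon response list were lower in OKS+FoxO6. Of 47 listed genes of the type I interferon response 42 could be tested and 41 of these were lower. By more than 2-fold 30 were lower, 28 of them by both rules, and none was higher. The median difference was -1.57 against 0.02 over all genes tested. Of all genes tested 8.43% were lower by 2-fold and 6.55% by both rules, shares that also stand beside the groups of this list below. By the edgeR test of day 3, 6 genes of the list were lower (Ddx58, Zbp1, Irf1, Oasl2, Xaf1 and Rtp4). None of the 6 interferon ligand genes listed had a count in either library, so they could not be compared. The 7 receptor and Janus kinase genes were all expressed, with differences from -0.05 to 0.66, a median of 0.41 and none past 2-fold.

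Among the sensors of foreign nucleic acid all 5 passed both rules. Ddx58, which encodes the RNA sensor RIG-I, stood at 224 TPM in OKS+DsRed and 58.7 TPM in OKS+FoxO6. Zbp1, a sensor of Z-form nucleic acid, stood at 157 and 24.3 TPM, and Tlr3, a receptor for double-stranded RNA, at 28.8 and 6.36 TPM. The sensors' median difference was -2.02.

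Of the 7 signalling genes all were lower by 2-fold and 6 by both rules. Irf1, a transcription factor of the interferon gamma response, stood at 95.01 TPM in OKS+DsRed and 9.89 TPM in OKS+FoxO6, and Irf7, which amplifies interferon production, at 92.6 and 16.02 TPM. Stat2 and Irf9, which act together in the complex that binds the response element, stood at 162 and 61.5 TPM and at 118 and 34.3 TPM. Of these Irf1 passed the edgeR test of day 3 (log2 difference of -3.16 ± 0.49 SE, adjusted p = 0.0359).

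Of the 30 antiviral effectors tested 18 were lower by 2-fold and 17 by both rules. Oasl2 stood at 253 TPM in OKS+DsRed and 12.3 TPM in OKS+FoxO6. Bst2, which tethers budding viruses, stood at 277 and 61.9 TPM, and Ifitm3, which blocks viral entry, at 1214 and 542 TPM. Isg15, a ubiquitin-like modifier, stood at 88.7 and 17.8 TPM. Ifit2 had 18 and 16 counts and a difference of -0.38, which passed neither rule.

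The interferon-inducible GTPases, which act on membranes around pathogens, were the list lowest in OKS+FoxO6 by its median, -3.17. All 13 members tested passed both rules, and 5 passed the edgeR test of day 3. Of all genes tested 6.55% were lower by both rules, and 0.381% of those fitted were lower by that edgeR test. Irgm1 stood at 368 TPM in OKS+DsRed and 51.9 TPM in OKS+FoxO6, Igtp at 138 and 8.38 TPM, and Irgm2, which shares its locus and strand with Igtp, at 80.7 and 9.06 TPM. Igtp and Irgm2 together had 396 and 46 counts. Among the guanylate binding proteins Gbp2 stood at 159 and 16.7 TPM, Gbp3 at 124 and 17.2 TPM, Gbp4 at 27.9 and 1.67 TPM and Gbp7 at 48.9 and 7.18 TPM. The smallest difference among the 13 tested was that of Gbp9, -1.67.

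Of 21 genes of MHC class I antigen presentation 13 were lower by 2-fold, 12 by both rules and none was higher by 2-fold. The shares of all genes tested were 8.43% lower by 2-fold and 6.55% by both rules. Tap1, which pumps peptides into the endoplasmic reticulum, stood at 131 TPM in OKS+DsRed and 15.5 TPM in OKS+FoxO6 and passed the edgeR test (adjusted p = 0.0451). Nlrc5 passed it too (adjusted p = 0.0425), and Psmb8 did not (0.0786). The heavy chain gene H2-K1 stood at 430 and 126 TPM, H2-T23 at 60.4 and 12.97 TPM, and the light chain gene B2m at 1942 and 1222 TPM. The general chaperones Calr and Canx differed by 0.13 and 0.18 in the other direction.

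**Figure D2:**
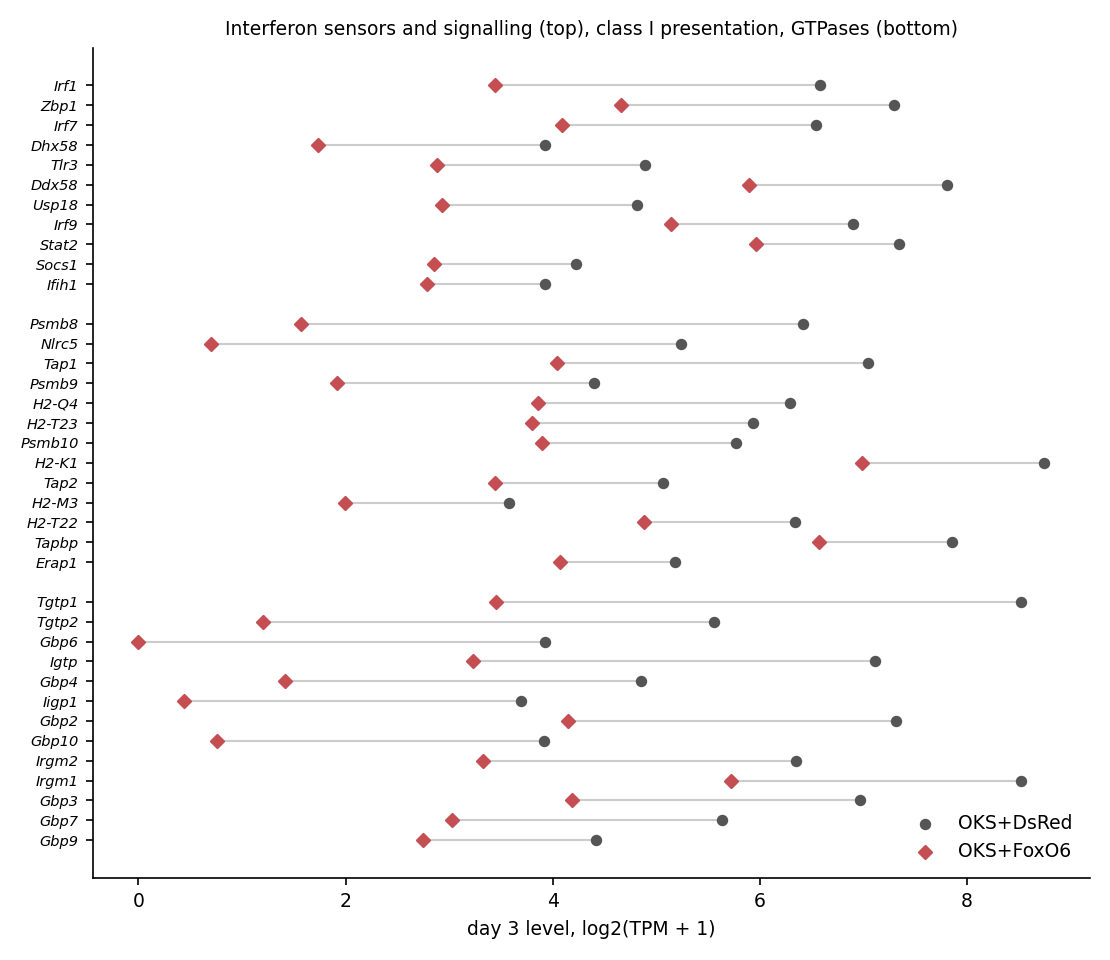
Day 3 level as log2(TPM + 1) of 11 sensor and signalling genes of the type I interferon list (top), the 13 genes of class I antigen presentation that differed by 2-fold (middle) and the 13 interferon-inducible GTPases tested (bottom), with a circle for the OKS+DsRed and a diamond for the OKS+FoxO6 library. The diamond lies left of the circle in each row, from Tgtp1 with 366 and 9.92 TPM to Gbp9 with 20.5 and 5.74 TPM among the GTPases.

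In OKS+DsRed the day 3 levels of Tgtp1 and Irf1 stood above those of days 0 and 1. Tgtp1 stood at 1.12, 3.35, 366, 685 and 262 TPM in OKS+DsRed on days 0, 1, 3, 5 and 7. In OKS+FoxO6 it stood at 0, 0, 9.92, 91.9 and 99.1 TPM. Irf1 stood at 13.7, 30.7, 95.01, 155 and 81.7 TPM in OKS+DsRed and at 11.8, 15.7, 9.89, 48.4 and 34.0 TPM in OKS+FoxO6. At day 3 Irf1 thus stood below its day 0 value in OKS+FoxO6, and Tgtp1 had its larger values there on days 5 and 7. The GTPases tested at day 3 had median differences of 0, 0, -3.17, -1.98 and -1.61 on these days. That of the type I interferon list was 0.08, -0.37, -1.57, -0.77 and -0.39.

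Ddx58, Rtp4 and Xaf1 of the type I interferon list passed the test at day 3 without being called over the other days. Xaf1, an interferon-inducible partner of an apoptosis inhibitor, stood at 190 and 40.0 TPM at day 3, and at 239 and 171 TPM at day 5. Its log2 difference was -2.56 ± 0.37 (SE) at day 3 and -0.24 ± 0.20 over the other days. The test of that gap itself gave an adjusted p of 0.638 by edgeR, so the difference at day 3 was not shown to depart from that of the other days.

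**Figure D3:**
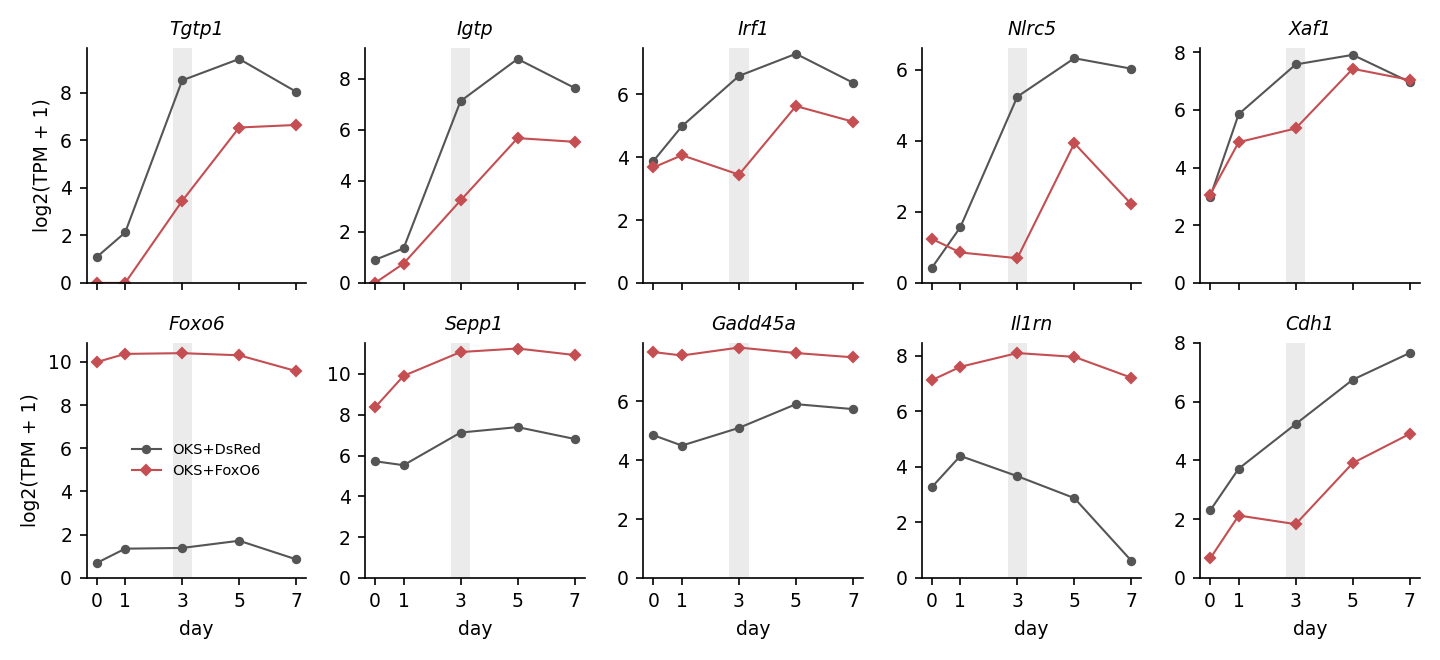
Levels of 10 named genes as log2(TPM + 1) on days 0, 1, 3, 5 and 7 in OKS+DsRed (circles) and OKS+FoxO6 (diamonds), 1 library a point, with day 3 shaded. At day 3 Tgtp1, Igtp, Irf1, Nlrc5, Xaf1 and Cdh1 stand lower in OKS+FoxO6 and Foxo6, Sepp1, Gadd45a and Il1rn higher, and Xaf1 reaches 124 and 131 TPM at day 7.

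Targets that FoxO factors are known to switch on were mostly higher in OKS+FoxO6 at day 3. Of 46 listed genes 38 were tested and 31 of these were higher, 7 by both rules and none lower by 2-fold, with a median difference of 0.38. Over all genes tested 6057 of 11738 were higher, and 4.17% were higher by both rules. Gadd45a, a brake on the cell cycle after DNA damage, stood at 33.3 TPM in OKS+DsRed and 227 TPM in OKS+FoxO6. With Sepp1 it passed the edgeR test of day 3 (log2 difference of 2.80 ± 0.45, adjusted p = 0.0359). The other 5 were Sesn3, a sestrin, at 58.2 and 123 TPM, Erbb3, a receptor tyrosine kinase, at 3.68 and 15.2 TPM, Cited2 at 13.6 and 37.5 TPM, Irs1, an insulin receptor adaptor, at 9.32 and 20.7 TPM, and Bnip3, of mitochondrial clearance, at 8.32 and 30.3 TPM. The classical cell cycle targets Cdkn1a and Cdkn1b differed by 0.24 and 0.09, and the atrophy gene Fbxo32 had 12 and 14 counts.

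In the autophagy machinery 29 of 42 genes tested were higher and 2 by both rules, Vmp1 at 81.4 and 239 TPM and Wipi1 at 11.4 and 38.4 TPM, both of which act in the growth of the autophagosome membrane. Over all genes tested 4.17% were higher by both rules, which is near the 2 of 42 here. The list's median difference was 0.24 and none of it passed the edgeR test of day 3.

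Most of the epithelial genes that could be tested were lower in OKS+FoxO6. Of 45 listed genes 18 were tested, 11 were lower by 2-fold, 10 of them by both rules, and 1, Perp, was higher. Over all genes tested 8.43% were lower by 2-fold, and by both rules 6.55% were lower and 4.17% higher. Cdh1, which encodes E-cadherin, had 117 counts (36.7 TPM) in OKS+DsRed and 10 (2.55 TPM) in OKS+FoxO6 and passed the edgeR test of day 3 (log2 difference of -3.97 ± 0.48, adjusted p = 0.0143). Epcam, an epithelial adhesion molecule, stood at 18.7 and 3.11 TPM, Krt8, a keratin of simple epithelia, at 32.2 and 4.71 TPM, and Spint2, a protease inhibitor, at 116 and 26.3 TPM. Perp, a desmosome protein that p53 also induces, stood at 147 and 296 TPM.

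The mesenchymal list was split. Of 36 genes tested 5 were higher and 5 lower by both rules, with a median difference of 0.16, where 4.17% of all genes tested were higher and 6.55% lower. Twist1 and Zeb1, transcription factors of the mesenchymal state, stood at 73.1 and 198 TPM and at 18.9 and 42.1 TPM, whereas Snai1 had 14 and 4 counts. Tgfbr2, a receptor of TGF beta, stood at 112 and 346 TPM. Among matrix genes Sparc stood at 1141 and 429 TPM and Col3a1 at 379 and 181 TPM, both lower, and Dcn at 41.2 and 125 TPM, higher. None passed the edgeR test of day 3.

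Few endogenous pluripotency genes were expressed by day 3. Of 38 listed 11 were tested, 5 were lower by both rules (6.55% of all genes) and 1 was higher (4.17%). L1td1, an RNA binding protein of stem cells, stood at 203 TPM in OKS+DsRed and 32.6 TPM in OKS+FoxO6, and Tdh, an enzyme of threonine breakdown in mouse stem cells, at 69.1 and 12.98 TPM. Klf5 stood at 9.08 and 30.3 TPM in the other direction. None passed the edgeR test of day 3 (adjusted p = 0.0547 for L1td1 and 0.0536 for Tdh).

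In the angiogenesis list 10 of 28 genes tested were higher and 4 lower by both rules, against 4.17% and 6.55% of all genes tested. Vegfd, a growth factor of lymph vessels, stood at 15.2 TPM in OKS+DsRed and 113 TPM in OKS+FoxO6, and Thbs1, thrombospondin, an inhibitor of vessel growth, at 29.6 and 198 TPM. Vegfa was lower, at 40.6 and 4.61 TPM, and its receptor gene Kdr higher, at 8.18 and 44.6 TPM. In the coagulation list, to be read against the same shares, 4 of 17 were higher and 2 lower by both rules, among them Pros1, protein S, a cofactor of anticoagulation, at 89.2 and 517 TPM. Vegfd, Thbs1, Pros1 and Kng2 passed the edgeR test of day 3 (adjusted p = 0.0451, 0.05, 0.0359 and 0.0479), the value of Thbs1 being just under the threshold. Beside these genes, the 14 endothelial markers summed to 189 and 674 counts. Kdr and Tek were higher by both rules, Pecam1 had 2 counts in each library, and Cdh5 had 0 and 1. The part of endothelial cells in these differences was not tested.

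Of 37 genes of cell migration and matrix proteolysis tested 9 were higher and 5 lower by both rules, against 4.17% and 6.55% of all genes tested. Timp3, an inhibitor of matrix proteases, stood at 261 and 75.0 TPM, and Podxl, a surface sialomucin, at 228 and 42.1 TPM, and both passed the edgeR test of day 3 (adjusted p = 0.0359 and 0.0479). Adamts5, a protease of cartilage matrix, had 5 and 115 counts, Itga1, a collagen receptor, 13 and 136, and Slit2, a guidance cue, 277 and 1321. Slit2 had a difference of 1.80 and an adjusted p above 0.05 by edgeR, as had the other 2.

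Genes of the cell cycle differed by less than 2-fold in most cases. Of the S phase genes 38 of 42 tested were lower, 2 of them by both rules, with a median difference of -0.44. Of the G2/M genes 46 of 54 were lower, 3 by both rules, with a median of -0.31. Over all genes tested 5675 of 11738 were lower and 6.55% were lower by both rules, so the counts by both rules were no higher in these lists than over all genes. No gene of either list was higher by 2-fold or passed the edgeR test.

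Neuronal markers were present in these cultures labelled as fibroblasts, and most were lower in OKS+FoxO6. Of 12 markers 8 were tested and 6 were lower by both rules, against 6.55% of all genes tested. The summed level of the 12 was 832 TPM in OKS+DsRed and 192 TPM in OKS+FoxO6, with 2 and 3 markers at 0. Nefl, the light neurofilament, had 892 and 136 counts and passed the edgeR test (log2 difference of -3.15 ± 0.47, adjusted p = 0.0359). Stmn2 stood at 240 and 47.0 TPM, Tubb3 at 42.5 and 8.52 TPM, while Map2 stood at 30.7 and 31.9 TPM.

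**Figure D4:**
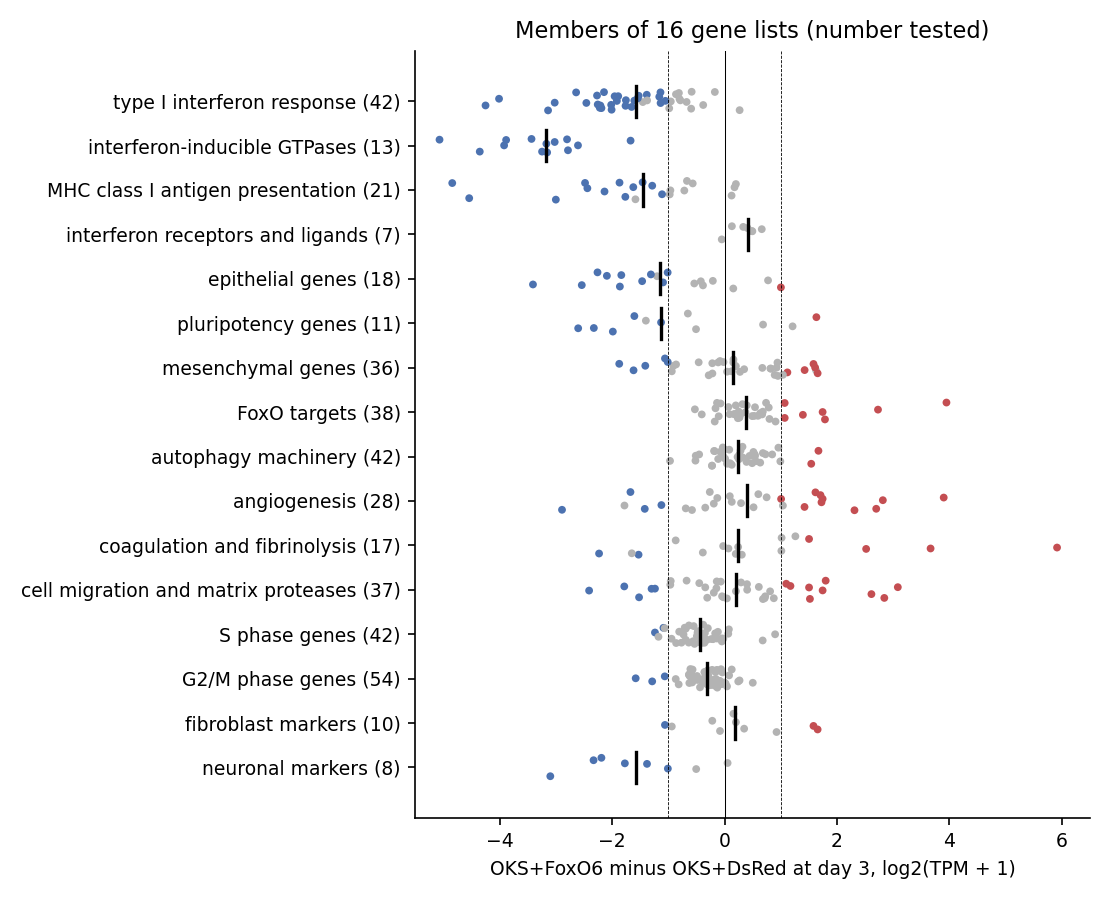
Difference of log2(TPM + 1), OKS+FoxO6 minus OKS+DsRed, for the tested members of 16 gene lists at day 3, 1 point a gene; red and blue points passed both rules, grey points did not, black bars are list medians and dashed lines mark 2-fold. The medians of the GTPase, interferon and class I lists lie at -3.17, -1.57 and -1.46, that of the interferon receptors at 0.41 and that of the FoxO targets at 0.38.

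The same genes were then read in the libraries that the day 3 comparison did not use. Of the 490 genes higher by both rules at day 3, those tested on another day were higher by 2-fold in 34.9% of 418 at day 0, 37.9% of 438 at day 1, 56.4% of 459 at day 5 and 43% of 440 at day 7. Over all genes tested on those days the shares were 8.39%, 5.22%, 8.42% and 6.59%. Of the 769 lower genes the shares lower by 2-fold were 17.9% of 492, 44.3% of 560, 51.3% of 705 and 44% of 703, against 3.39%, 6.17%, 8.38% and 15.1% of all genes. Each of these shares stood above that of all genes on the same day, and the lowest was that of the lower genes at day 0, of which 44 went 2-fold the other way.

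An edgeR fit without the day 3 libraries called 384 of 11107 genes (3.46%) higher and 326 (2.94%) lower in OKS+FoxO6 over days 0, 1, 5 and 7. Of the days left out in turn, days 1 and 5 moved these counts most, to 182 and 162 without day 1 and to 112 and 54 without day 5. Of the 19 genes higher by the edgeR test of day 3 all 19 were called higher here. Of the 42 lower genes 34 were called lower and 2, Gm26870 and Gm10718, higher. Both fits took their spread from the libraries of days 0, 1, 5 and 7, so this overlap is partly built in. Of 701 genes called over the other days and tested at day 3, 677 had the same direction at day 3, 383 of them by 2-fold, and 4 went 2-fold the other way.

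The course over the days differed among the named genes. Sepp1 stood at 51.7, 45.0, 139, 167 and 111 TPM in OKS+DsRed on days 0, 1, 3, 5 and 7 and at 327, 958, 2158, 2432 and 1949 TPM in OKS+FoxO6. Gadd45a stood between 21.6 and 59.0 TPM in OKS+DsRed and between 180 and 227 TPM in OKS+FoxO6, and Il1rn between 0.53 and 19.97 TPM and between 138 and 273 TPM, so the arms of these genes did not overlap. Zbed6, one of the highest at day 3, differed by 4.08, -3.42, 1.72 and -2.98 on days 0, 1, 5 and 7. On the same days Pam16 differed by 1.67, 0.12, -3.08 and 4.92, while Mamdc4 was lower in OKS+FoxO6 on each of them. Kng1 was at 0 in each OKS+DsRed library and at 5.67, 16.9, 59.5, 30.3 and 24.6 TPM in OKS+FoxO6. Try5 was also at 0 in each OKS+DsRed library and at 1.25, 3.29, 59.8, 80.2 and 89.0 TPM in OKS+FoxO6. Cdh1 stood at 3.90, 12.2, 36.7, 106 and 201 TPM in OKS+DsRed and at 0.58, 3.35, 2.55, 14.01 and 28.9 TPM in OKS+FoxO6. Crhr2 was at 0 in both day 0 libraries, at 51.1 and 2.74 TPM at day 3, and at 87.0 and 5.94 TPM at day 7.

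Whether the arm difference at day 3 departed from that of the other days was tested in the fit of all 10 libraries. By edgeR 0 of 11028 genes (0.0%) were above the shift of the other days, with 76 at an unadjusted p under 0.05, and DESeq2 called 0. By edgeR 3 genes (0.0272%) were below it, with 151 at an unadjusted p under 0.05, and DESeq2 called 3. Without day 0 the test called 1 gene below it, and without day 1 it called 0. No gene of the interferon, FoxO, epithelial or other lists was called, so nothing in those lists was shown to be particular to day 3.

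These 3 genes are the predicted models Gm26870, Gm10718 and Gm10800, named after their values were seen. Gm26870 lies on chromosome 9 (3000282 to 3038313), Gm10718 inside its span, and Gm10800 on chromosome 2 (98666547 to 98667301), at loci known for satellite repeats, where reads are hard to place. Gm26870 stood at 1347, 20.6, 644.5, 55.1 and 13.04 TPM in OKS+DsRed on days 0, 1, 3, 5 and 7, and at 7255, 327, 31.7, 1095 and 53.02 TPM in OKS+FoxO6. It was thus higher in OKS+FoxO6 on every day but day 3. The 3 models together took 0.0411% and 0.00212% of the counts at day 3, in OKS+DsRed and OKS+FoxO6, and 0.000854% to 0.452% over the 10 libraries. The level of the ribosomal RNA gene Rn18s-rs5 was 6585 and 1276 TPM at day 3 and 5300 and 8283 TPM in the day 0 libraries of OKS+FoxO6 and OKS+DsRed. The part of library preparation in these values was not tested.

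**Figure D5:**
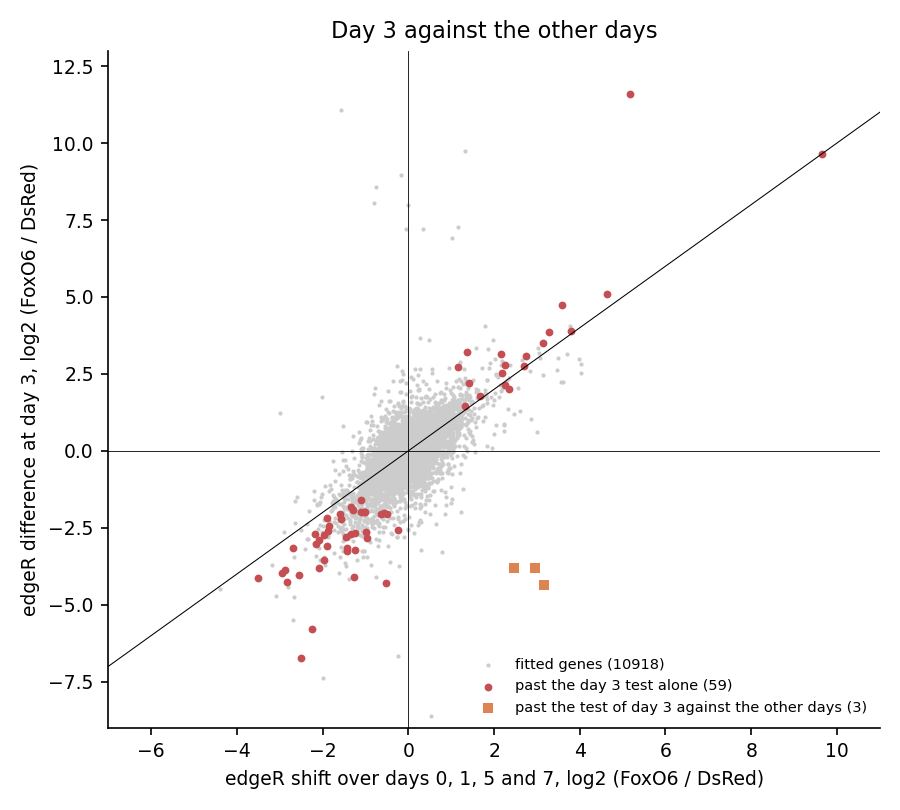
Log2 difference between the arms by edgeR at day 3 (vertical) against the shift over days 0, 1, 5 and 7 (horizontal) for the 10918 genes in both fits, of which 1 lies outside the plotted range; the diagonal marks equal values. The red points passed the test of day 3 alone and lie on the same side of 0 on both axes, whereas the 3 square points, Gm26870, Gm10718 and Gm10800, of which the first 2 also passed the test of day 3, lie below 0 at day 3 and above 0 over the other days.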

How the data were processed

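RNA of 10 libraries was sequenced, 1 for each arm on days 0, 1, 3, 5 and 7. The authors aligned reads to mm10 with Bowtie2 and estimated expression with RSEM, per the labels, with no versions given. The library kit was a VAHTS mRNA-seq V3 kit by the labels and a TruSeq kit by the methods. The deposited files hold expected counts and TPM per gene, with the effective length of each gene (not used for any test). Both values depend on how RSEM divided shared reads. Arms and days came from the labels. The members and gene lists were chosen with earlier results of these data known, so lists are described by counts and medians without a test of their own.

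Day 3 libraries were compared as the difference of log2(TPM + 1) over the 11738 genes with at least 10 expected counts in the higher library, and 2-fold was the threshold. Expected counts, as deposited, were rounded for an exact two-sided binomial test against the share given by TMM-scaled totals, with Benjamini-Hochberg adjustment and a threshold of 0.05. A bound sets 3 counts for 0, and 95% intervals are Clopper-Pearson. The same rounded counts of all 10 libraries were fitted with edgeR 4.0.16 in R 4.3.3 (quasi-likelihood, TMM, filterByExpr), with day, arm and arm at day 3 as terms. A second fit left out day 3. DESeq2 1.42.0, other scalings, filters and pseudocounts, and fits without each other day were alternatives. Counting and tables used Python 3.11.15 with pandas 2.3.3 and scipy 1.17.1, and matplotlib 3.10.9 drew the plots.

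Named genes were the 15 highest and 15 lowest differences past the exact test, without predicted models and pseudogenes (which left out 13 and 15), the transduced factors, up to 5 genes in each direction past the test of day 3 against the other days, and list members. Results of some list members are not reported here. Gene symbols came from the series table, coordinates from GENCODE M21 for 50376 of 50600 identifiers. Counts were simulated with 200 changed genes and, for edgeR, a spread between libraries (common dispersion 0.0379). There the edgeR test of day 3 recovered 142 with 10 false calls among 10902 genes. The test of day 3 against the other days recovered 100 with 7 false calls. The exact test was given separate Poisson counts, with counting error alone, and recovered 193 with 6 false calls among 10995. Its figures cannot be set against those of edgeR. Totals of 1208379 to 2225750 expected counts limit what can be read of low genes. Where cultures were not stated to be separate, p-values measure only the spread between these libraries.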

Additional observations from a re-analysis of the deposited data

Results flagged for a closer look

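3 genes differed between the arms at day 3 by an amount that departed from the difference on the other days, by a test of that departure itself (edgeR, adjusted over 11028 genes). For Gm26870 the day 3 difference minus the shift over days 0, 1, 5 and 7 was -7.52 on the log2 scale (adjusted p = 0.0256). For Gm10800 it was -6.74 (adjusted p = 0.0313), and for Gm10718 it was -6.25 (adjusted p = 0.0256). Their counts at day 3 were 517 in OKS+DsRed and 33.8 in OKS+FoxO6 for Gm26870, 31.7 and 2.93 for Gm10800, and 52.7 and 5.32 for Gm10718, and the fractional counts show reads shared with other transcripts. No group had 4 samples, so no sample was tested for standing apart from its group.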

How the results depend on the processing

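The counts of 2-fold differences followed the filter: 1812 higher and 2457 lower with at least 1 expected count in the higher library, and 436 and 530 with at least 30. Another pseudocount, CPM or centring kept them within 1.5 times of 710 and 989, and the higher genes were 39.8% to 45.1% of the calls under every setting. The edgeR test of day 3 called 180 higher and 288 lower with no filter on low counts and 34 and 79 by DESeq2, and leaving out 1 other day gave 3 to 79 higher (39 without day 0) and 11 to 109 lower (95 without day 0 and 22 without day 5). The test of day 3 against the other days called 11 and 29 with no filter, and 0 to 3 lower with 1 day left out. The shift over the other days gave 785 higher and 738 lower with no filter, and 112 to 389 and 54 to 413 with 1 day left out (182 and 162 without day 1). The cause was not tested. All 60 values of named genes under another pseudocount or scaling kept their direction, which could not have turned out otherwise. A pseudocount cannot turn the sign of a difference, and the rule for naming required scaled counts to go the same way. Of the list medians under the 5 alternatives, 151 moved by less than their spread and 9 did not. These were 4 of the macrophage markers (-0.78 to -1.14), the endothelial median (0.54 with at least 1 count), the GTPase median (-3.98 with a pseudocount of 0.1) and 3 of MHC class II, where the single MHC class II gene tested turned to 0.55 on CPM. The labels give no replicate numbers, and day as a term paired the arms in each edgeR fit. Genes with under 100 counts are limited by depth.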

Other observations

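Other gene lists held smaller sets of differences at day 3, given as values of these libraries, where 4.17% of all genes tested were higher and 6.55% lower by both rules. Among complement and acute phase genes 3 of 8 tested were higher by both rules and 3 lower. Lbp, which binds bacterial lipopolysaccharide, had 12 counts in OKS+DsRed and 77 in OKS+FoxO6, and the complement genes C1ra, C1s1 and Serping1 differed by -1.65, -1.96 and -1.79 on the log2(TPM + 1) scale. Of 5 chemokines tested none was higher and 2 were lower by both rules, Ccl2 with 68 and 23 counts among them. Of 25 genes of the insulin and IGF pathway 3 were higher and 2 lower by both rules, and Igfbp3, a carrier of insulin-like growth factors, had 1213 and 362 counts. Of 11 TGF beta and BMP targets 1 was higher and 2 lower by both rules. Ctgf, a matrix associated growth factor, had 66 and 453 counts, while Id1 and Id2, inhibitors of differentiation, differed by -2.48 and -1.76.

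In the remaining lists few genes passed both rules, and counts near the shares over all genes are no result about a list. These were 1 higher and 1 lower of 10 histone deacetylases, with Hdac9 at 57 and 302 counts, 1 and 2 of 13 Wnt feedback targets, 2 and 2 of 23 ERK feedback genes and 2 and 3 of 48 small GTPase regulators. They were 2 higher and 3 lower of 38 hypoxia genes, 2 and 1 of 24 p53 and senescence genes, 1 and 1 of 25 cholesterol synthesis genes and 2 and 0 of 26 genes of the unfolded protein and integrated stress response, among them Slc7a11, a cystine transporter, higher by 1.59. The 1 MHC class II gene tested differed by -0.04.

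Of the 61 genes called by the edgeR test of day 3, 25 were in a list, and some of the others are named here after their values were seen. Slc4a11, a membrane transporter, had 44 counts in OKS+DsRed and 677 in OKS+FoxO6 (log2 difference of 3.5 ± 0.37 SE, adjusted p = 0.0114). Axl, a receptor tyrosine kinase whose ligands are Gas6 and protein S, had 457 and 1707 (1.46 ± 0.27, adjusted p = 0.0485). Lower were Lgr6, a receptor for R-spondins, with 241 and 22 counts, Crabp2, which carries retinoic acid, with 127 and 23, Hey2, a Notch target, with 138 and 41, and Ntn1, the guidance cue netrin, with 863 and 253. Ifi47, an interferon-inducible GTPase outside the list, had 84 and 8 counts.

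Trh, thyrotropin releasing hormone, was among the most abundant genes with a difference and was named after its values were seen. It stood at 1.17, 68.9, 2467, 3251 and 2508 TPM in OKS+DsRed on days 0, 1, 3, 5 and 7 and at 5.50, 25.8, 447, 1676 and 2610 TPM in OKS+FoxO6. At day 7 the arms thus stood close to each other, and the edgeR test of day 3 did not call it (adjusted p = 0.0743).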
